A study of Arabidopsis thaliana with 16 samples.

Results

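The serine carboxypeptidase-like (SCPL) family of Arabidopsis thaliana encodes secreted or vacuolar proteins built on the fold of serine carboxypeptidases. Some members cut amino acids from the ends of proteins, and others have become acyltransferases, which move an acyl group from a glucose ester to another molecule. The best known acyltransferase, SNG1, makes sinapoylmalate, a sunscreen compound of leaf epidermis, from sinapoylglucose and malate. Members were all protein-coding genes on chromosomes 1 to 5 whose symbol is SCPL or scpl followed by a number, 49 of 27444 protein-coding genes. The family was chosen by its calls in the 4 peak lists described here, so those counts are a description and support nothing. SNG1 and BRS1 belong to the family but carry other symbols, so they are not among the 49 and are given beside them.

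Both H3K4me3 and H3K27me3 were profiled in 2 genotypes by chromatin immunoprecipitation and sequencing (ChIP-seq). H3K4me3 is found near the starts of transcribed genes, and H3K27me3 is laid down by the Polycomb system on repressed genes. Guard cells, the paired cells that open and close the stomatal pore, were sorted from protoplasts of the aerial parts of seedlings 12 days post germination (dpg), which had been kept at 22 °C on a cycle of 16 h light and 8 h dark. The groups were wild type (WT) and fama-1, FAMAp:FAMA-LGK, fama-1 seedlings in which the FAMA promoter drives a FAMA-LGK transgene, called FAMA-LGK here. FAMA is a transcription factor of guard cell differentiation, and the series' design text sets differentiated against reprogrammed guard cells. The sources used here do not give the number of independent lines, the reporter used for sorting, or whether replicates came from separate plantings. Each mark in each genotype had 2 ChIP libraries and 2 inputs, 16 libraries in all, which the authors condensed into 1 peak list.

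A gene was called marked where listed peaks covered at least 150 bp of its body, and its covered length counts the bases under peaks in the body and in 500 bp of flank at either end. Calls are a description of 4 lists, since no value per replicate was used, no spread between replicates can be given and no test between genotypes was possible. The lists hold 16036 (WT) and 15989 (FAMA-LGK) H3K4me3 peaks and 7386 and 7652 H3K27me3 peaks, without read counts, so depth is unknown. Of 12 guard cell genes, 12 were called for H3K4me3 in WT and 10 in FAMA-LGK, and the covered length of all 12 was shorter there. The 12 include FAMA itself (2886 bp in WT against 627 bp in FAMA-LGK), the gene that the fama-1 background and the transgene both concern. TGG2, a myrosin cell gene, was not among the 12. It had 0 bp of H3K4me3 and 4070 bp of H3K27me3 in each genotype. Of 4 trichome and root hair regulators, 4 were called for H3K27me3 and 1 for H3K4me3 in each genotype. What part the makeup of the sorted cells had in any difference was not tested.

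As a family, SCPL genes carried H3K27me3 more often and H3K4me3 less often than protein-coding genes at large, and in FAMA-LGK more of them carried H3K4me3. For H3K4me3, the calls were 9 of 49 members (18.4%) in WT against 15 (30.6%) in FAMA-LGK, where 62.2% of all protein-coding genes were called in each genotype. For H3K27me3, they were 22 members (44.9%) in WT against 24 (49%) in FAMA-LGK, beside 24.4% of all genes in each. Members are 1603 to 4622 bp long, with a median of 3071 bp against 2078 bp for all genes. Among the 16148 protein-coding genes in that range of lengths, the H3K4me3 shares were 73.8% (WT) and 74% (FAMA-LGK), and the H3K27me3 shares 20.5% and 20.4%. The members thus lay on the same sides of the background when genes of their own lengths were taken.

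**Figure D1:**
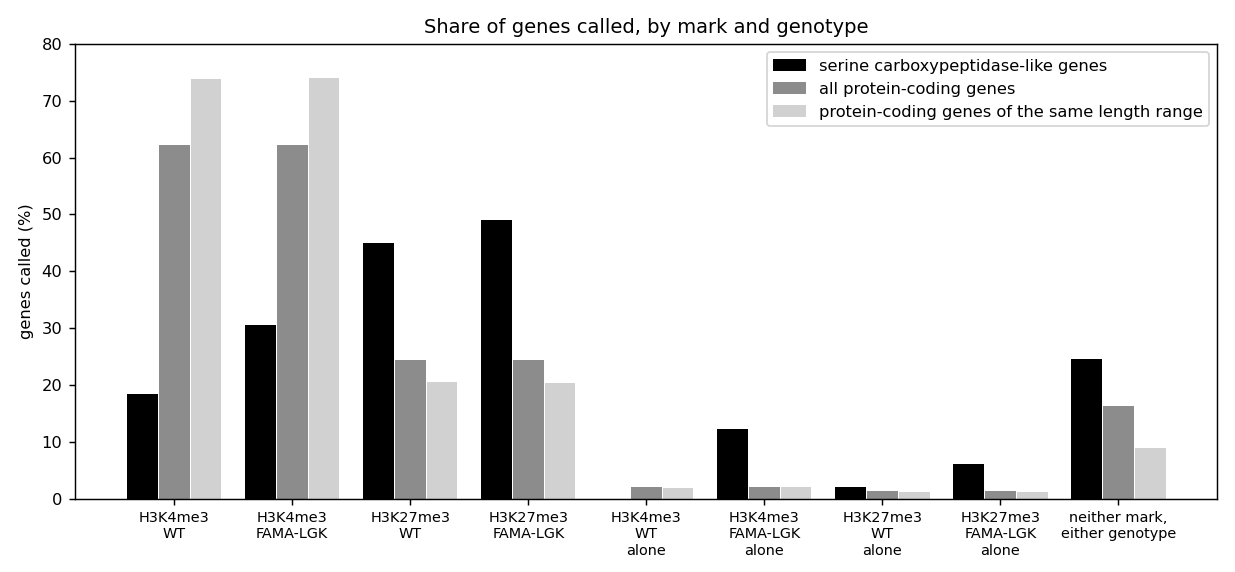
Percentage of genes called (y axis) for each mark and genotype, for calls in 1 genotype alone and for genes with neither mark, in the 49 serine carboxypeptidase-like genes, all 27444 protein-coding genes and the 16148 protein-coding genes of 1603 to 4622 bp. The black bars lie below the grey bars for H3K4me3 in both genotypes, above them for H3K27me3, and stand at 12.2% for H3K4me3 in FAMA-LGK alone, where the grey bar is at 1.99%.

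More members were called in 1 genotype alone for H3K4me3 than for H3K27me3, and those for H3K4me3 were all called in FAMA-LGK. In FAMA-LGK alone, 6 members (12.2%) were called for H3K4me3, namely SCPL11, SCPL13, scpl10, SCPL27, scpl35 and SCPL51, beside 1.99% of all genes and 2.08% of genes of their lengths. In WT alone, 0 members were called, beside 2.03% and 1.9%, shares so small that 0 of 49 says little. Only 9 members were called in WT, so few calls could be lost and many members could gain one. SCPL11, SCPL13 and scpl10 also lie in 1 array. The other 9 called members (18.4%) were called in both genotypes, as were 60.2% of all genes and 71.9% of genes of their lengths. For H3K27me3, 1 member (scpl40) was called in WT alone, beside 1.39% of all genes and 1.21% of genes of their lengths, and 3 (SCPL12, scpl41 and SCPL43) in FAMA-LGK alone, beside 1.37% and 1.13%. No member went from one mark alone to the other mark alone, a switch made by 0.131% of all genes towards H3K4me3 and by 0.153% towards H3K27me3 (0.13% and 0.173% of genes of the members' lengths). The 6 calls in FAMA-LGK alone rested on weak peaks. With only the stronger 50% of each list by −log10 q, none of the 6 remained, and the members called in 1 genotype alone were then scpl25 and scpl26 in WT and SCPL49 in FAMA-LGK. With at least 50% of the body required, 0 of the 6 were called. Of the 9 members called in both genotypes, the stronger 50% kept 0 in that state, and 50% of the body kept 3. Loss under these settings is therefore not particular to the 6.

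Numbers 1 to 19 hold the known acyltransferases, such as the sinapoylglucose:anthocyanin sinapoyltransferase scpl10 and the seed enzyme SCPL19 (SNG2), which makes sinapoylcholine. Of the 18 members numbered 1 to 19, 0 were called for H3K4me3 in WT and 3 (16.7%) in FAMA-LGK, beside 62.2% of all genes. For H3K27me3 the calls were 6 (33.3%) and 7 (38.9%), beside 24.4% of all genes, and 9 (50%) had neither mark in either genotype, beside 16.3%. Of the 26 members numbered 20 to 46, which include the relatives of plant carboxypeptidases, 6 (23.1%) were called for H3K4me3 in WT and 8 (30.8%) in FAMA-LGK, and 15 (57.7%) and 16 (61.5%) for H3K27me3. Of the 5 members numbered 47 to 51, which include SCPL49, named carboxypeptidase Y in the gene table, 3 (60%) were called for H3K4me3 in WT and 4 (80%) in FAMA-LGK, and scpl47 alone (20%) for H3K27me3, in both, shares that rest on 5 genes. These 3 ranges were chosen with the calls known, and their differences were not tested.

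**Figure D2:**
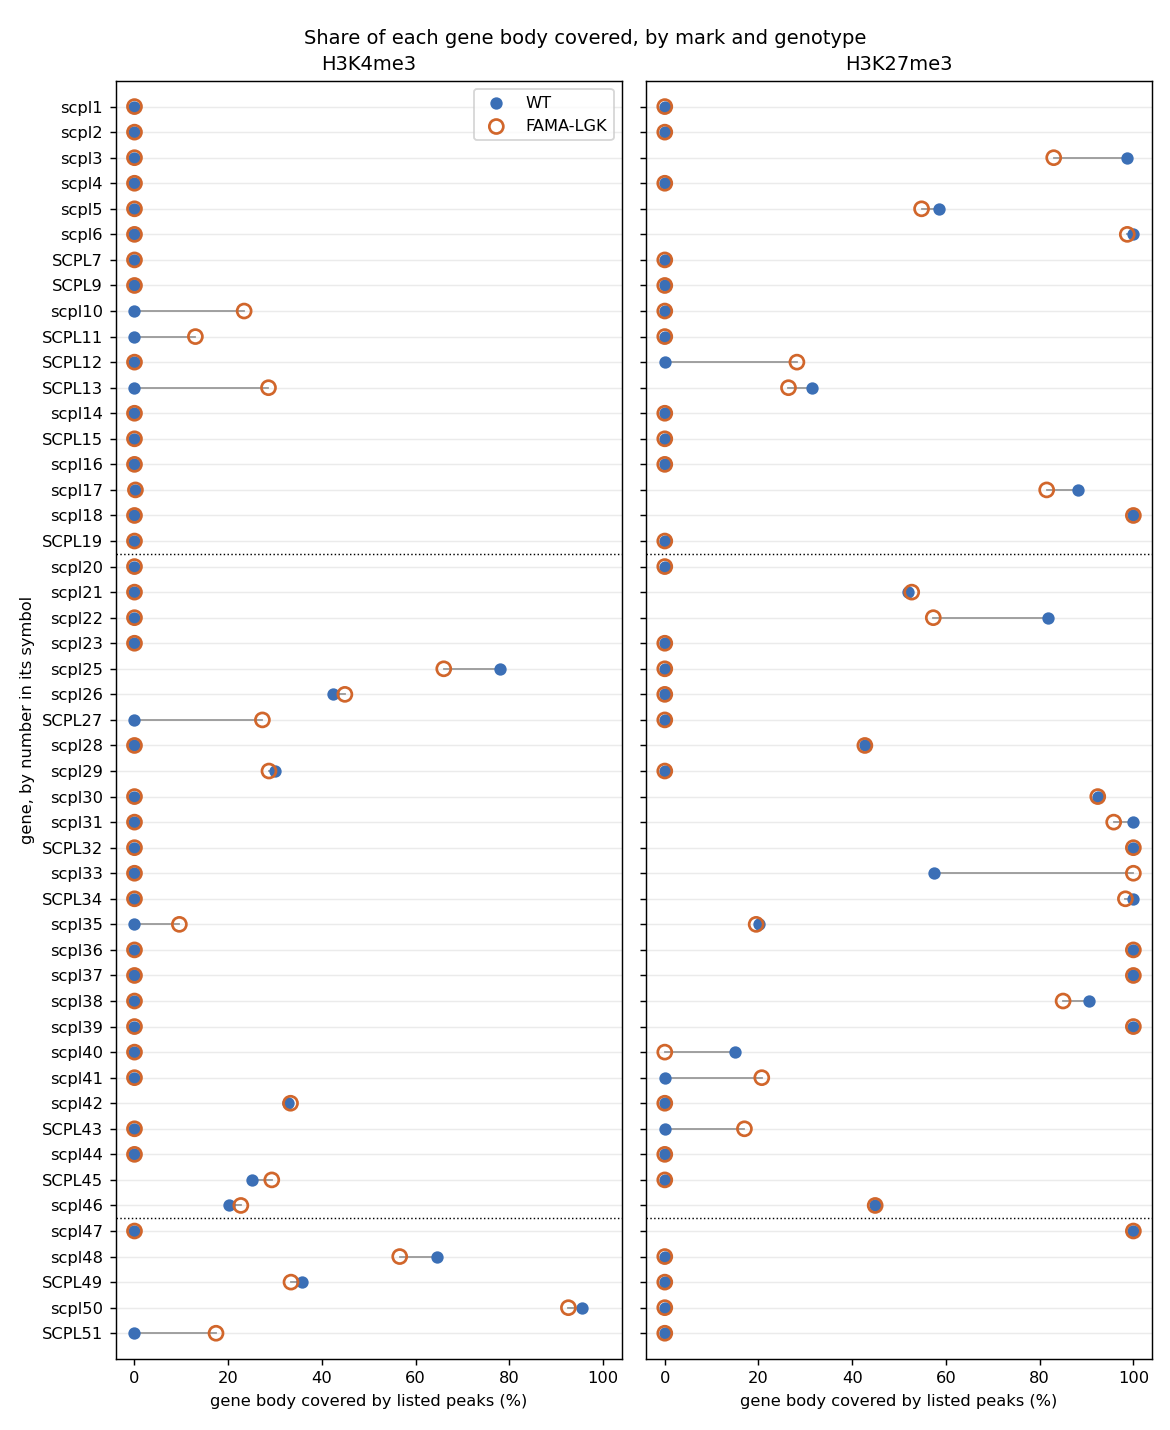
Percentage of the gene body covered by listed peaks (x axis) for each of the 49 genes (y axis, ordered by number; dotted lines separate numbers 1 to 19, 20 to 46 and 47 to 51), for H3K4me3 (left) and H3K27me3 (right). Filled blue points are WT, open orange points FAMA-LGK; 6 genes leave 0% for H3K4me3 in FAMA-LGK, and most genes with H3K27me3 keep a similar share in both genotypes.

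The largest group of neighbouring genes that differed was the array around SNG1 on chromosome 2. Arrays were taken as at least 3 family genes with no more than 20 kb between neighbours, SNG1 and BRS1 included, which gave 4 arrays with 17 members and SNG1. The chromosome 2 array spans 49 kb and holds, in order, SCPL12, SCPL11, SCPL13, SNG1, scpl10 and SCPL9, with 6 other protein-coding genes between SCPL12 and SCPL11. In WT no H3K4me3 peak was listed anywhere in these 49 kb. In FAMA-LGK there were 4, one on each of 4 neighbouring genes, and they covered 4926 bp.

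SNG1 (AT2G22990) had 0 bp of H3K4me3 in WT against 2137 bp in FAMA-LGK, and no H3K27me3 in either genotype. Its peak ran from 9786228 to 9788364 on chromosome 2 of TAIR10. The authors' fold of ChIP over control at this peak was 3.15, and all folds given here are theirs. SCPL13 (AT2G22980) had 0 bp of H3K4me3 in WT against 1301 bp in FAMA-LGK, at chromosome 2, 9778778 to 9780078, with a fold of 3.24. These were the stronger peaks of the array, at the 20.2 and 21.1 percentiles of the FAMA-LGK list by −log10 q.

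The remaining pair of peaks was weaker. On scpl10 (AT2G23000), whose enzyme adds sinapoyl groups to anthocyanins, H3K4me3 went from 0 to 993 bp, at chromosome 2, 9792239 to 9793231, with a fold of 2.29 and a percentile of 8.53. On SCPL11 (AT2G22970) the body was covered over 0 bp in WT against 495 bp in FAMA-LGK, at chromosome 2, 9774951 to 9775445, with a fold of 1.91 and a percentile of 3.41. The covered length of SCPL11 was 779 bp in FAMA-LGK, because the peak of SCPL13, a gene 197 bp away, reaches into its flank. SCPL9 (AT2G23010), which encodes a sinapoyltransferase that joins a pair of sinapoylglucose molecules, had neither mark in either genotype, and SCPL12 had no H3K4me3. The H3K4me3 gain was thus listed on 4 of the 6 family genes of the array, at adjacent genes.

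H3K27me3 in this array lay mainly on the genes between SCPL12 and SCPL11. Of the 6 other protein-coding genes, 4 were called for H3K27me3 in each genotype and 0 for H3K4me3. SCPL13 carried H3K27me3 over 1430 bp in WT, at chromosome 2, 9778786 to 9780215, against 1204 bp in FAMA-LGK, at 9778924 to 9780127, with folds of 2.49 and 2.28. In FAMA-LGK its H3K27me3 and H3K4me3 peaks shared 1155 bp, so both marks were listed over the same stretch of the gene. Whether the same cells carried both marks was not tested. SCPL12 (AT2G22920) was called for H3K27me3 in FAMA-LGK alone, over 1120 bp at chromosome 2, 9756030 to 9757149, with a fold of 1.86. Tandem copies can share sequence, and how reads that fit several copies were placed is not given in the sources used here, so values of single array genes are uncertain to that extent.

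**Figure D3:**
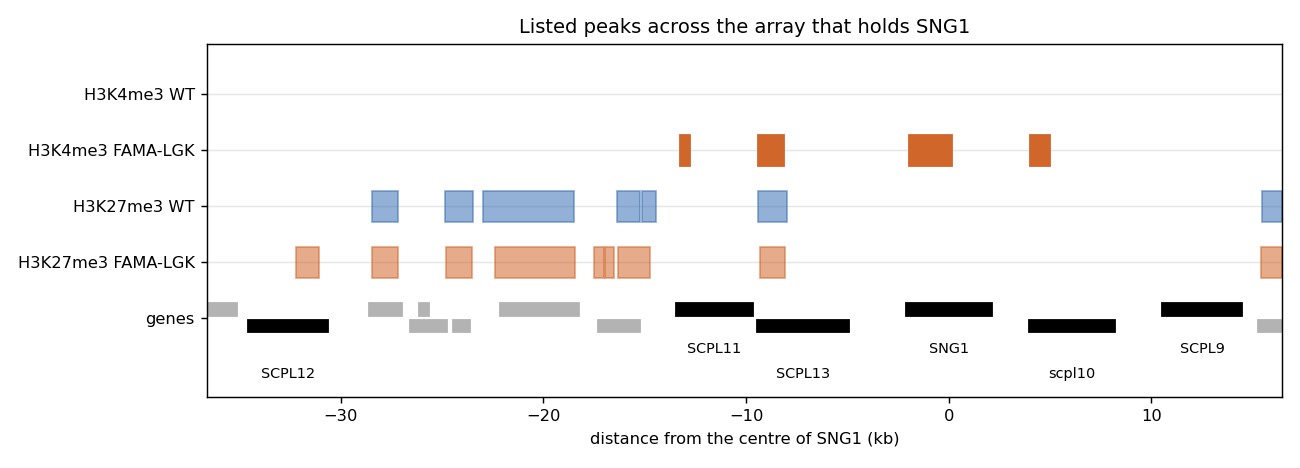
Listed peaks (bars) of each mark and genotype along the chromosome 2 array, by distance from the centre of SNG1 in kb (x axis); black boxes are family genes, grey boxes other protein-coding genes, set on alternate levels, and peaks that run past the panel are cut at its edge. The H3K4me3 row of WT is empty, and that of FAMA-LGK has 4 bars, on SCPL11, SCPL13, SNG1 and scpl10.

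The 3 other arrays had no H3K4me3 call on a family gene in either genotype, and their H3K27me3 calls were the same in both. On chromosome 3, scpl36, scpl37 and scpl39 lie within 8.14 kb, and their gene bodies were covered whole, over 1872, 1989 and 1840 bp, in each genotype. A single H3K27me3 peak spanned scpl36 and scpl37, at chromosome 3, 19292898 to 19298591 in WT (fold 3.98) and 19292937 to 19298567 in FAMA-LGK (fold 4.52). A second peak on scpl39 had folds of 4.88 and 5.73 and was the strongest by −log10 q at any member in FAMA-LGK, at the 90.5 percentile of its list.

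The chromosome 1 array of scpl6, scpl3, scpl5, scpl2 and scpl4 spans 16.2 kb and was divided. H3K27me3 covered scpl6 over 3497 bp of its body in WT and 3451 bp in FAMA-LGK, scpl3 over 2638 and 2219 bp, and scpl5 over 1526 and 1429 bp. The neighbours scpl2 and scpl4, whose annotated bodies overlap, had 0 bp of both marks in both genotypes. In WT a single peak of 8052 bp ran over the neighbour KTI1, scpl6 and scpl3. In FAMA-LGK the same stretch was listed as 3 peaks of 1704, 5259 and 543 bp. The WT peak stood at the 78.9 percentile of its list, with its summit outside scpl6 and scpl3. The 1704 bp peak lay on KTI1, with 0 bp in scpl6, at the 78.7 percentile. The 5259 bp peak, on scpl6 and scpl3, stood at the 43.3 percentile. These percentiles therefore do not compare the same bases, and show no weakening on scpl6 or scpl3.

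In the last array, on chromosome 3, scpl17 alone carried a mark. The enzyme of scpl17 is needed for benzoylated glucosinolates of the seed. Its body was covered by H3K27me3 over 3060 bp in WT against 2831 bp in FAMA-LGK, with folds of 3.74 and 4.07. The neighbours scpl16, scpl14 and SCPL15 had no H3K27me3, and no H3K4me3 within their bodies. H3K4me3 peaks flanked scpl17 on both sides in both genotypes, on AT3G12210 and Nek7, and the one on AT3G12210 reached into the body of scpl17 by 1 bp in WT against 7 bp in FAMA-LGK. These were the largest values below the 150 bp needed for an H3K4me3 call, and the smallest above it were 611 bp (scpl46, WT) and 420 bp (scpl35, FAMA-LGK). For H3K27me3 the members not called had 0 bp, and the smallest called values were 399 bp (scpl40, WT) and 530 bp (SCPL43, FAMA-LGK).

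**Figure D4:**
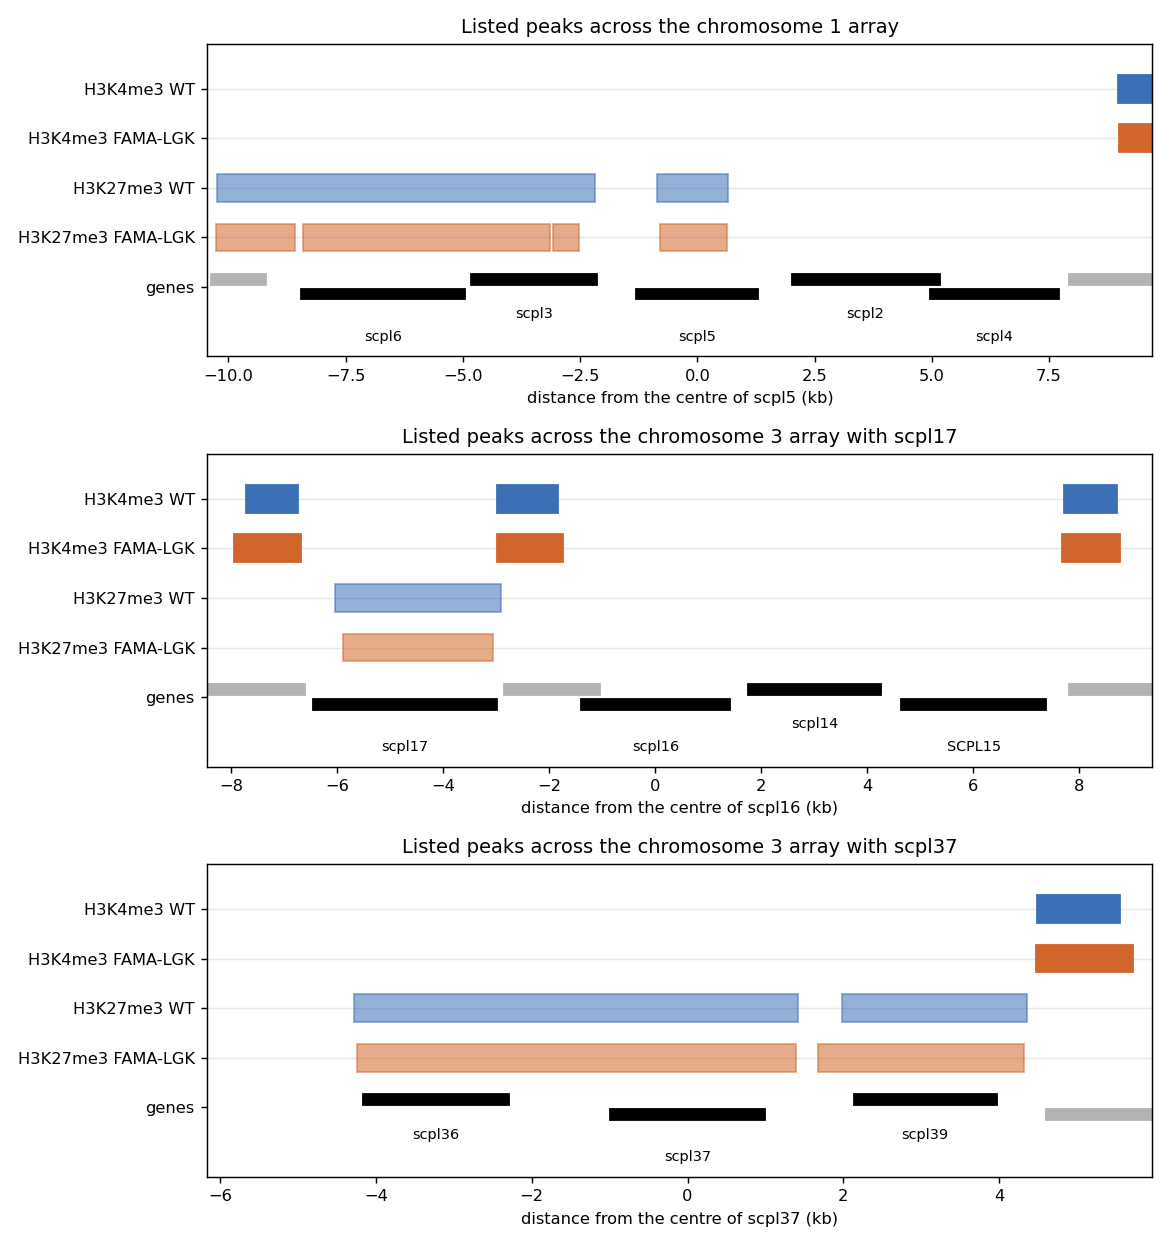
Listed peaks (bars) of each mark and genotype along the 3 other arrays, by distance in kb (x axis) from the centre of scpl5 (top), scpl16 (middle) and scpl37 (bottom); black boxes are family genes and grey boxes other protein-coding genes, and peaks that run past a panel are cut at its edge. H3K27me3 bars cover 3 of 5 family genes at the top, 1 of 4 in the middle and 3 of 3 at the bottom, in both genotypes, and H3K4me3 bars lie on other genes.

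Outside the arrays, 3 members were called for H3K4me3 in FAMA-LGK alone. SCPL27 (AT3G07990) had 0 bp in its body in WT against 689 bp in FAMA-LGK, at chromosome 3, 2552528 to 2553216, with a fold of 1.55. This was among the weakest peaks of the whole list, at the 0.094 percentile, and the call was lost when peaks under a −log10 q of 5 were left out. SCPL51 (AT2G27920) went from 0 to 628 bp, at chromosome 2, 11888468 to 11889095, with a fold of 1.75 and a percentile of 1.37.

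On scpl35 (AT5G08260), H3K4me3 covered 0 bp of the body in WT against 420 bp in FAMA-LGK, at chromosome 5, 2657166 to 2657585, with a fold of 2.11. A second H3K4me3 peak, on the neighbour AT5G08270, lay within 500 bp of scpl35 in both genotypes, so that its covered lengths were 417 and 875 bp. With flanks of 500 bp included in the call, scpl35 was called in both genotypes. It also carried H3K27me3 in both, over 881 and 854 bp, at weak peaks with folds of 1.74 and 1.86. The 2 marks shared 0 bp within scpl35 in FAMA-LGK.

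Peaks behind calls in 1 genotype alone were weak for their lists. By −log10 q, all 6 H3K4me3 peaks behind calls in FAMA-LGK alone were below the 25 percentile of their list, with folds of 1.55 to 3.24. Of the 10 FAMA-LGK peaks at members called in both genotypes, 5 were below it. All 4 H3K27me3 peaks behind calls in 1 genotype alone were below it too, against 3 of 21 (WT) and 2 of 21 (FAMA-LGK) at members called in both. Peaks at members differed by mark as well. Over all peaks with at least 150 bp on a member, the median percentile was 26 for H3K4me3 in WT and 19.8 in FAMA-LGK, and 67 and 59.9 for H3K27me3, where 50 is the middle of each list. The H3K4me3 peaks on members were thus weak for their lists, and the H3K27me3 peaks stronger than most. Of the members called for H3K27me3, 15 of 22 in WT and 20 of 24 in FAMA-LGK had a summit in the body. A percentile can therefore reflect bases outside a member.

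**Figure D5:**
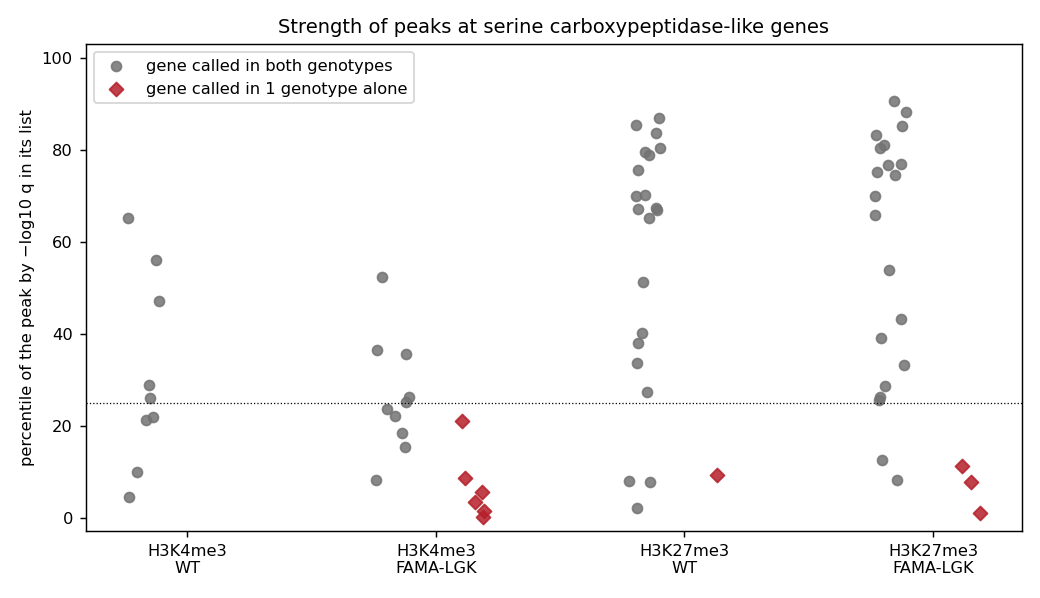
Percentile of each peak by −log10 q within its own list (y axis) for peaks that cover at least 150 bp of a serine carboxypeptidase-like gene, by mark and genotype; grey circles are peaks at genes called in both genotypes, red diamonds at genes called in 1 genotype alone, and the dotted line marks 25. All red points lie below the line, and all but 3 (WT) and 2 (FAMA-LGK) of the grey H3K27me3 points lie above it.

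The 9 members called for H3K4me3 in both genotypes were scpl25, scpl26, scpl29, scpl42, SCPL45, scpl46, scpl48, SCPL49 and scpl50. In FAMA-LGK, 5 of them had longer and 4 shorter covered lengths, with a median change of 7 bp, beside 17 bp for all genes called in both. The longest in WT was on scpl25 (AT3G02110), with 2739 bp in WT against 2135 bp in FAMA-LGK. There a single WT peak (chromosome 3, 371358 to 374096; fold 5.39) faced 2 FAMA-LGK peaks with folds of 4.07 and 2.99. This was the largest decrease among the 49 members, -604 bp.

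The longest in FAMA-LGK was on scpl50, with 2431 bp in WT against 2453 bp in FAMA-LGK, and scpl48 followed these in each genotype, with 1976 and 1792 bp. On scpl50 the H3K4me3 peak covered 95.5% (WT) and 92.6% (FAMA-LGK) of the body and had its summit outside the gene. SCPL49 (AT3G10410) had 1547 and 1495 bp, scpl26 1489 and 1525 bp, scpl42 1404 and 1246 bp, and scpl29 1375 and 1382 bp. SCPL45 had 841 and 999 bp, and scpl46 611 and 688 bp. Of the members with an H3K4me3 summit in the body, the median distance of the summit from the nearer end of the gene was 379 bp in WT against 422 bp in FAMA-LGK, beside 352 and 360 bp for all genes. The gene table gives no strand, so that end could not be named as the start or the stop.

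BRS1 (AT4G30610), a secreted carboxypeptidase known from brassinosteroid signalling, was called for H3K4me3 in both genotypes as well. It had 1235 bp in WT against 570 bp in FAMA-LGK, with folds of 3.42 and 1.96. With SNG1 and BRS1 counted, H3K4me3 was called on 7 of 51 family genes in FAMA-LGK alone, beside 1.99% of all genes. It was called on 0 in WT alone, beside 2.03%, a share so small that 0 of 51 says little. SNG1 was the added gene with such a call, and this count was added after the data were seen.

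H3K27me3 was called in both genotypes on 21 members (42.9%), beside 23.1% of all genes and 19.3% of genes of their lengths. On 18 of these H3K4me3 was called in neither, a pair of states held by 36.7% of the members and 18.2% of all genes. Among called members, a median of 2065 bp of the body was covered in WT and 1974 bp in FAMA-LGK, beside 1189 and 1193 bp for all called genes. Members are longer than most genes, however. As a share of the body the medians were 91.4% and 84%, below the 93.9% and 93.5% of all called genes. Of the 22 distinct peaks at called members in WT, 8 also covered at least 150 bp of another protein-coding gene, as did 7 of 24 in FAMA-LGK.

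The longest H3K27me3 covered lengths were on SCPL34 (AT5G23210), with 4975 bp in WT against 4871 bp in FAMA-LGK, scpl31 (AT1G11080), with 4686 and 4031 bp, and scpl6, with 4497 and 4332 bp. SCPL32 (3975 bp) and scpl47 (3626 bp) were covered over the body and both flanks in each genotype. On SCPL32 a WT peak of 8356 bp and a FAMA-LGK peak of 9511 bp, the widest at any member, also covered the terpene synthase gene TPS04. Among the 21 members called in both genotypes, the covered length was shorter in FAMA-LGK on 13, longer on 4 and the same on 4, with a median change of -39 bp. Over all 6329 genes called in both, 2824 were shorter, 2503 longer and 1002 the same, with a median of 0 bp.

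The largest changes ran both ways. On scpl33 (AT3G17180) 2435 bp were covered in WT against 4004 bp in FAMA-LGK, from a peak at chromosome 3, 5855239 to 5857673 (fold 3.54) to one at 5855287 to 5859290 (fold 4.52). The body of scpl33 was covered by 57.4% in WT and 100% in FAMA-LGK, with the left ends of the peaks close together and the right ends apart. On scpl22 (AT2G24000) it was 4161 bp in WT, in 3 peaks, and 2851 bp in FAMA-LGK, in 2. The peak listed in WT alone there, at chromosome 2, 10210643 to 10211533, had a fold of 1.8 and lay at the 7.73 percentile of its list. On scpl31 the difference was -655 bp, with a peak of 9029 bp in WT against 7488 bp in FAMA-LGK, and on scpl3 -419 bp, where the domain was listed in pieces in FAMA-LGK. All 6 members numbered 1 to 19 that were called in both were covered over a shorter length in FAMA-LGK, with changes of -419 to -97 bp. Over all genes called in both, 2824 of 6329 were shorter. The 6 are not separate cases, since scpl6, scpl3 and scpl5 lie in 1 array and scpl6 and scpl3 share 1 WT peak. This range of numbers was chosen with the calls known.

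The 4 members with H3K27me3 in 1 genotype alone had weak peaks and no H3K4me3 call. The member called in WT alone was scpl40 (AT3G63470), with 399 bp at chromosome 3, 23438571 to 23438969, and a fold of 1.92. Besides SCPL12, the calls in FAMA-LGK alone were scpl41 (AT5G42230), with 801 bp at chromosome 5, 16883482 to 16884282, and a fold of 1.66, and SCPL43 (AT2G12480), with 530 bp at chromosome 2, 5069773 to 5070302, and a fold of 1.84. The call of scpl41 was lost when peaks under a −log10 q of 5 were left out, and when both lists were cut to equal length. All 4 were lost with only the stronger 50% of each list. Next to scpl41, scpl42 was called for H3K4me3 and not for H3K27me3 in both genotypes.

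Few members had both marks, as was so for genes at large, and counts this small do not set the family apart. In WT this held for scpl46 alone (2.04% of members, beside 4.97% of all genes and 5.11% of genes of their lengths), and in FAMA-LGK for scpl46, scpl35 and SCPL13 (6.12%, beside 4.51% and 4.68%). On scpl46 (AT2G33530) H3K27me3 was part of a peak of 4927 bp in WT against 4857 bp in FAMA-LGK that also covered AT2G33510 and AT2G33520, and H3K4me3 lay elsewhere in the gene with 0 bp shared. SCPL13 was thus the member where both marks met on the same bases.

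Neither mark was called in either genotype on 12 members (24.5%, beside 16.3% of all genes and 8.99% of genes of their lengths), and 9 of the 12 were numbered 1 to 19. These were scpl1, scpl2, scpl4, SCPL7, SCPL9, scpl14, SCPL15, scpl16, SCPL19, scpl20, scpl23 and scpl44. SCPL19 (SNG2) had an H3K4me3 peak of a neighbour within its flank, with 58 bp in WT against 1 bp in FAMA-LGK. The divergent state of neighbours was plain at scpl22 and scpl23, where scpl22 was called for H3K27me3 in both genotypes and scpl23 had 0 bp in its body.

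The acyltransferases of the family use sinapoylglucose and related esters, which are made by the phenylpropanoid pathway and the UGT84A glucosyltransferases. Of 22 genes of this pathway, H3K4me3 was listed in both genotypes on 17 (77.3%, beside 60.2% of all genes). All 22 are within the members' range of lengths, where the share was 71.9%, so 77.3% is near it. H3K4me3 was listed in neither genotype on 3, and in 1 genotype alone on 1 each way. Covered lengths were longer in FAMA-LGK on 13 and shorter on 6, with a median change of 67 bp, beside 0 bp over all genes and 17 bp over genes called in both genotypes. UGT84A1 (AT4G15480), which makes glucose esters of hydroxycinnamic acids, had 0 bp of H3K4me3 in WT and 709 bp in FAMA-LGK. UGT84A3 (AT4G15490) went the other way, with 684 and 0 bp, and carried H3K27me3 in both genotypes (2364 and 2103 bp). UGT84A2 (AT3G21560), whose enzyme supplies sinapoylglucose to SNG1, was called for H3K4me3 in both, with 1978 and 1826 bp, and so was FAH1 (AT4G36220), the ferulate 5-hydroxylase gene of sinapate synthesis, with 1792 and 1349 bp. For H3K27me3, 5 of the 22 (22.7%) were called in both genotypes, near the 23.1% of all genes. The ligase genes 4CL1 (481 and 0 bp) and 4CL2 (1966 and 0 bp) were called in WT alone, beside 1.39% of all genes. No gene of this list was called for H3K27me3 in FAMA-LGK alone, beside 1.37% of all genes, a share so small that 0 of 22 says little.

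Other large families of specialised metabolism gave other counts. Of 219 cytochrome P450 genes, 78 (35.6%) were called for H3K4me3 in WT and 86 (39.3%) in FAMA-LGK, 6 in WT only and 14 in FAMA-LGK only. Of 58 UGT genes, 41 (70.7%) and 36 (62.1%) were called, 8 in WT only and 3 in FAMA-LGK only. H3K27me3 was called on 54.8% and 53% of the P450 genes and on 39.7% and 41.4% of the UGT genes. The serine carboxypeptidase-like genes had the lowest share with H3K4me3 of the 3 families in each genotype, and these differences were not tested.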

How the data were processed

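The H3K4me3 and H3K27me3 ChIP-seq peak lists were used, 1 per mark and genotype, each standing for 2 ChIP libraries and 2 inputs. Per the submitters' processing notes, the tools were CASAVA 1.8.2, MACS2 and Bowtie2 and the genome build was TAIR10; roles and settings are not stated there. How replicates were combined is not given in the sources used here. The authors' deposited lists give peak positions, a score and a −log10 p-value (neither used), a fold of ChIP over control as a ratio, and a −log10 q-value. These values served only to describe, rank or filter peaks within a list. The deposited peak names carry numbers as high as 16553 and 16491 (H3K4me3, WT and FAMA-LGK) and 9094 and 9096 (H3K27me3), above the numbers of peaks listed, so a gene with no listed peak may have had one that was left out.

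From these, overlapping or touching peaks were merged and gene bodies intersected with them (Python 3.11.15, NumPy 2.4.6, pandas 2.3.3). Genes came from the RefSeq table of TAIR10.1, without strand. Of WT H3K4me3 summits, 96.3% lay in protein-coding genes, and shifts of 100 to 1000 bp either way gave at most 96.1%. Coordinates are the peaks' own, with the first base of a chromosome as 1. The intersection was tested on simulated data with known answers, with 0 of 2000 wrong.

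Values were given for members called in 1 genotype alone or for both marks, the 3 largest changes each way, the 3 longest covered lengths per mark and array genes; others are accounted for by calls. The members and lists were chosen with earlier results of these data known. Alternatives changed the covered length required, the flanks, the summit rule and the peaks used. No replicate could be left out, and no sequences were used.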

Additional observations from a re-analysis of the deposited data

How the results depend on the processing

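Counts of members called depended most on peak strength and on the share of the gene required. With only the stronger 50% of each list by −log10 q, H3K4me3 calls were 2 in WT, all 2 of them not called in FAMA-LGK, and 1 in FAMA-LGK, not called in WT, so that the calls in 1 genotype alone, 0 in WT and 6 in FAMA-LGK as reported, became 2 and 1; H3K27me3 calls in FAMA-LGK were 14, 2 members were called for it only in WT and 0 only in FAMA-LGK, and 0 members had both marks in either genotype. With 50% of the body required, 3 members were called for H3K4me3 in each genotype, and calls in FAMA-LGK alone for H3K4me3, calls in 1 genotype alone for H3K27me3 and members with both marks were all 0. With flanks of 500 bp, 3 members had H3K27me3 in WT alone, and 4 (WT) and 5 (FAMA-LGK) had both marks. With a summit required in the body, 6 had H3K27me3 in FAMA-LGK alone and 0 had both marks in WT, and with at least 1 bp covered 2 had both marks in WT. Of the 92 values recomputed for counts and medians, 70 stayed within 1.5 times the reported value and 22 did not. The median changes in covered length over all members were 0 bp as reported and in the 6 settings that recomputed them. Of the 49 members, 28 for H3K4me3 and 26 for H3K27me3 had the same covered length in both genotypes as reported. These medians were thus bound to be 0 and say nothing of the members that changed. The count with SNG1 and BRS1 as members was added after the data were seen. The 6 H3K4me3 calls in FAMA-LGK alone were all kept with at least 1 bp, a summit required or equal numbers of peaks, and 5 of them with flanks or at a −log10 q of at least 5. The stronger 50% leaves out nearly all H3K4me3 peaks of the family, so that setting cannot show whether the difference holds. The cause of these changes was not tested. No paired analysis was possible because each list stands for its replicates together. Without read counts, a difference in depth between lists cannot be told apart from a difference in the mark.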
